A study of Mus musculus with 12 samples.

Results

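Transcripts of 10 lipid droplet genes were followed in mouse inguinal white adipose tissue (iWAT): the perilipins Plin1, Plin2, Plin3, Plin4 and Plin5, the CIDE genes Cidea, Cideb and Cidec, and the FIT genes Fitm1 and Fitm2. They were chosen by symbol from the 23420 genes of the deposited count table, and the rule itself used no measured value. The 12 libraries came from male C57BL/6 mice at 10 weeks of age and form 4 groups of 3. All mice carried loxP-flanked HIF2α alleles (HIF2α loxP/loxP), without Cre in the groups labelled WT and with Adipoq-Cre in those labelled AKO. Adipoq-Cre is driven by the adiponectin promoter, which is active in white, beige and brown adipocytes, so Cre and the targeted loss were always present together. Housing was either thermoneutral (TN), which was 1 week at 30 °C, or cold, which was 3 days between 4 and 6 °C. The labels do not state that each library is a separate mouse, so p-values measure the spread between these libraries, which may in part be technical.

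A lipid droplet (LD) is a core of neutral lipid under a phospholipid monolayer, and the proteins on that monolayer set how lipid is stored and released. Perilipins coat LDs and govern the access of lipases. PLIN1 holds back the lipase activator ABHD5 until protein kinase A phosphorylates it. CIDE proteins gather where LDs touch and move lipid from the smaller to the larger LD, and FIT proteins sit in the endoplasmic reticulum, where LDs form. White adipocytes hold a large unilocular LD, whereas the beige adipocytes that arise in iWAT upon cold hold many small LDs beside abundant mitochondria.

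All values rest on 22368316 to 35204631 gene counts per library, given as CPM, counts scaled to a common library size after TMM normalization. Epas1, which encodes HIF2α, does not check the AKO label: at TN it had 373, 278 and 430.0 CPM in the libraries labelled WT and 289, 394 and 360.1 CPM in those labelled AKO. In cold, the values were 576, 562 and 743 CPM in WT and 986, 743 and 749 CPM in AKO. The counts cover the whole gene, and the deleted part is not given in the sources used here, so genotypes are given as labelled throughout. The cold label was checked with 8 thermogenic adipocyte genes, Ucp1 among them, whose summed level was 21.6 to 52.2 CPM in the 6 TN libraries and 2842 to 7250 CPM in the 6 cold libraries. Several libraries stood apart. The levels of 10 skeletal muscle markers summed to 1901 CPM in TN AKO library 2 and 1636 CPM in cold AKO library 1, against 12.5 to 110.2 CPM in the other libraries. TN WT library 2 and TN AKO library 1 were lowest in 6 white adipocyte markers (10180 and 14390 CPM, against 16040 to 33330 CPM elsewhere) and highest in 6 lymphocyte markers (1397 and 1432 CPM, against 440 to 1060 CPM). The 6 epithelial markers examined summed to 200 CPM in TN WT library 3 and to at most 10.3 CPM elsewhere. In whole tissue, fewer cells of a type and less RNA per cell cannot be told apart.

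The promoters of 4 members are shown beside their responses to cold: Plin2 and Plin5 rose in both genotypes, Plin4 lies next to Plin5 and passed the test in neither genotype, and Cidec had the highest mean level per length in every group. RefSeq (GRCm38.p6) gave windows for 9 of the 10 members, all but Cidea, and the bases printed are those before the start of transcription, less any that an annotated exon covers. All 4 genes lie on the minus strand. The runs are chr4:86670061-86670309 for Plin2, chr17:56117597-56117798 for Plin5, chr17:56109804-56110032 for Plin4 and chr6:113435761-113436010 for Cidec. Capitals mark AGGTCA, the half-site of many nuclear receptors, and TATAA, on either strand.

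Plin2: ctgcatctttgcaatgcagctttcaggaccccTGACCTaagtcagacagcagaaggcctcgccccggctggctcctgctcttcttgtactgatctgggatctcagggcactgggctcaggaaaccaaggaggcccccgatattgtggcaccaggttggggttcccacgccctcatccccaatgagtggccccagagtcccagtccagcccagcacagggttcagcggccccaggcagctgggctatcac
Plin5: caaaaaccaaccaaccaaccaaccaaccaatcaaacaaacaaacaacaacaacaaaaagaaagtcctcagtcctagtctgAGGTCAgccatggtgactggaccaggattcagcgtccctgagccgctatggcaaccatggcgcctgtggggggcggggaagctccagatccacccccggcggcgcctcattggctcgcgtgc
Plin4: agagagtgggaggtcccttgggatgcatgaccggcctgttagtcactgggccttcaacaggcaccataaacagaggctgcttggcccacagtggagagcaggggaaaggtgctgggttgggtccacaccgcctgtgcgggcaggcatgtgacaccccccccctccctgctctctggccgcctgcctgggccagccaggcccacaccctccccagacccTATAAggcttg
Cidec: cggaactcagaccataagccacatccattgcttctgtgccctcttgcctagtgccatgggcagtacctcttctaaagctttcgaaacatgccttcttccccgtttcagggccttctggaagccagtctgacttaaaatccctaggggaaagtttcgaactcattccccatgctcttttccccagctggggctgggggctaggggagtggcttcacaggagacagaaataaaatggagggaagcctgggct

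AGGTCA began 218 bases before the start in Plin2, read as TGACCT, and 170 bases before it in Plin5. The windows searched run from 250 bases before to 50 bases after a start. AGGTCA was present in 3 of 11 windows of the members, that of Plin2 and both of Plin5, and in 16.26% of all 32851 windows. The windows of Plin3 and Fitm2, which also rose in both genotypes, did not hold it. TATAA began 32 bases before the start in Plin4 and 27 bases before it in Plin5, the latter in a stretch left out above because an annotated exon covers it. It was found in 3 member windows, the third being that of Cideb, and in 24.87% of all windows. ACGTG, a form of the core that hypoxia-inducible factors bind, was found in 1 member window, that of Plin2, and in 19.62% of all windows. In Plin2, CACGTG spans the start and so reads ACGTG on both strands. The other form of this core, GCGTG, was not searched for, so these values do not cover all such cores. The cAMP response element TGACGTCA was in no member window and in 1.79% of all windows, and the direct repeat of AGGTCA with 1 base between the copies was in no member window and in 0.0396% of all. No match says only that these letters are not in this window.

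Upon cold, most of these genes rose in both genotypes, and by very different amounts. Cidea and Plin5 rose most, Plin2 and Fitm2 rose several-fold, Plin3 rose slightly, and Plin1 and Plin4, the most abundant perilipins at TN, did not pass the test. With edgeR's quasi-likelihood test and Benjamini-Hochberg adjustment over 15306 genes, 7 of the 9 members tested rose in WT and 6 of 9 rose in AKO at an adjusted p under 0.05. Of all genes tested, 15.6% rose in WT and 15.6% rose in AKO. No member fell in either genotype, where 5.68% of all genes fell in WT and 11.5% in AKO, and all 9 were fitted higher in cold in both. Without TN WT library 2 and TN AKO library 1, 5 of the 10 members tested rose in each genotype. The calls lost were Plin3 in both (log2 0.44 in WT and 0.50 in AKO) and Cideb in WT (log2 2.16). Without the 2 libraries with muscle transcripts, the counts were 7 and 6 of 9. Of all genes in the first of these fits, 1315 of 15457 rose in WT and 1562 in AKO. In the second, 2200 of 15442 genes rose in WT and 1239 in AKO. Cideb passed the filter on low counts only through its cold libraries, where it is high, so its presence among the tested genes depends on the outcome. Without it the counts were 6 of 8 in WT and 5 of 8 in AKO. Fitm1 did not pass the filter in the fit of all 12 libraries. Lymphocyte markers summed to 859 to 1432 CPM in the TN libraries and 440 to 792 CPM in the cold libraries, without overlap. White adipocyte markers spanned 10180 to 24150 CPM at TN and 17600 to 33330 CPM in cold, and the part of either in these results was not tested.

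**Figure D1:**
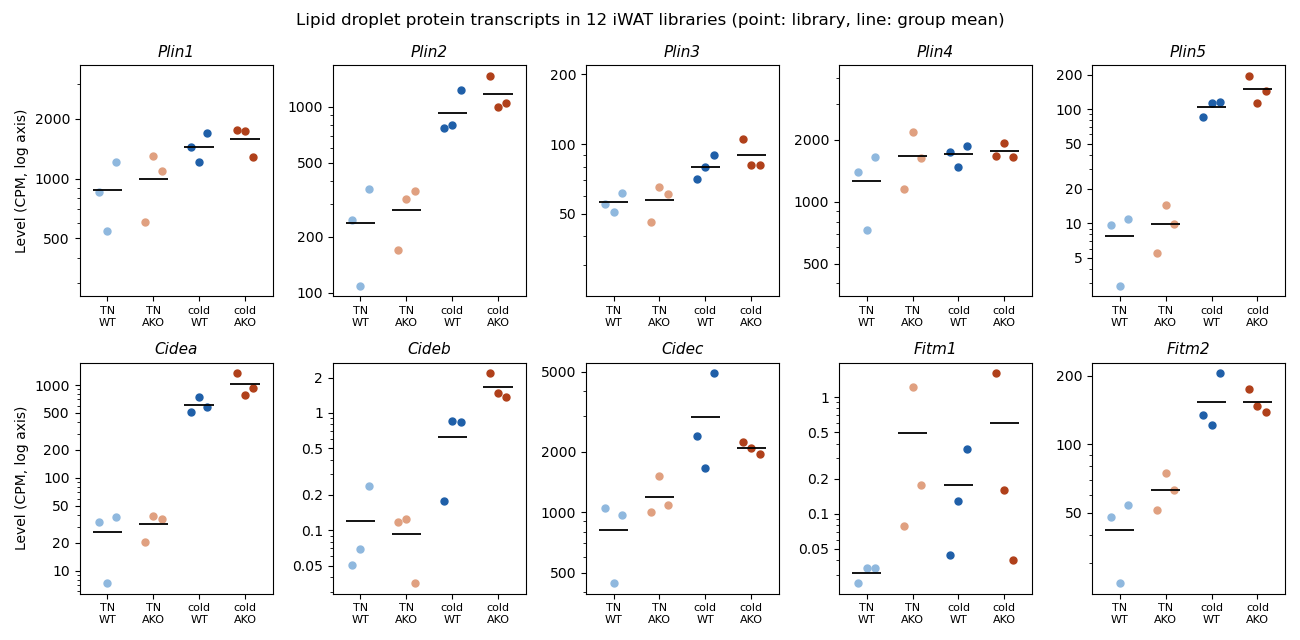
CPM (log axis) of the 10 genes in each library, by group, with a point for each library and a line at the mean of 3. Cidea and Plin5 sit far higher in all cold libraries, Plin4 overlaps between TN and cold, Cidec in cold WT library 3 stands at 4924 CPM, and Fitm1 is highest in TN AKO library 2 and cold AKO library 1.

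Among the perilipins, Plin5 responded most. PLIN5 is the perilipin of oxidative tissues and tethers LDs to mitochondria. It was measured at 9.60, 2.84 and 10.8 CPM in TN WT and at 84.8, 114 and 115 CPM in cold WT. At TN in AKO it was at 5.49, 14.5 and 9.90 CPM, and in cold at 196, 113 and 143 CPM. Every cold library lay above every TN library. The fitted rise was 13.4-fold in WT (log2 3.75 ± 0.47 SE, edgeR adjusted p = 8.71e-04) and 15.05-fold in AKO (log2 3.91 ± 0.48 SE, edgeR adjusted p = 4.06e-04).

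Plin2, which coats the LDs of most cell types and is degraded when free of lipid, was measured at 246, 109 and 360.1 CPM in TN WT and at 767, 795 and 1232 CPM in cold WT. In AKO it was at 169, 320.1 and 351 CPM at TN and at 1469, 993 and 1047 CPM in cold. The TN and cold libraries did not overlap in either genotype. Plin2 rose 3.91-fold in WT (log2 1.97 ± 0.41 SE, edgeR adjusted p = 0.00868) and 4.18-fold in AKO (log2 2.06 ± 0.42 SE, edgeR adjusted p = 0.00605). Plin3, which is found in the cytosol and on nascent LDs, lay between 46.0 and 65.3 CPM at TN and between 70.8 and 104.8 CPM in cold. Its rise was 1.43-fold in WT (log2 0.51 ± 0.15 SE, edgeR adjusted p = 0.0361) and 1.55-fold in AKO (log2 0.64 ± 0.15 SE, edgeR adjusted p = 0.0137). Its call depended on which libraries were used. In WT the edgeR adjusted p was 0.0925 without TN WT library 1, 0.136 without TN WT library 2, 0.051 without TN AKO library 3, 0.0732 without cold WT library 2 and 0.137 without cold WT library 3. In AKO it was 0.0539 without TN AKO library 1 and 0.0646 without cold AKO library 1.

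Plin1, the adipocyte perilipin that protein kinase A phosphorylates, was measured at 859.6, 544 and 1210 CPM in TN WT and at 1433, 1211 and 1703 CPM in cold WT. The values in AKO were 603, 1291 and 1087 CPM at TN and 1748, 1728 and 1285 CPM in cold. The groups just failed to overlap in WT and overlapped in AKO. The log2 difference was 0.73 (95% interval 0.03 to 1.44, edgeR adjusted p = 0.117) in WT and 0.68 (95% interval -0.03 to 1.38, edgeR adjusted p = 0.132) in AKO. In WT the adjusted p was 0.0428 with limma voom, and with edgeR it was 0.0452 without TN WT library 3. Plin4, a perilipin of nascent LDs that is rich in repeats, spanned 732 to 2188 CPM at TN and 1476 to 1943 CPM in cold, and its groups overlapped in both genotypes. Its log2 difference was 0.44 (95% interval -0.21 to 1.08, edgeR adjusted p = 0.285) in WT and 0.08 (95% interval -0.57 to 0.73, edgeR adjusted p = 0.852) in AKO. Without TN WT library 2 the value in WT was 0.15, and without TN AKO library 1 the value in AKO turned to -0.12.

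Plin4 (chr17:56100591-56109803) and Plin5 (chr17:56111601-56117596) are neighbours on the minus strand of GRCm38, 1797 bases apart with no annotated gene between them. Their 95% intervals for cold against TN did not overlap in either genotype, from 2.71 to 4.79 for Plin5 and from -0.21 to 1.08 for Plin4 in WT on the log2 scale. Plin3 lies 159879 bases from Plin5 on the same chromosome. Plin1 lies on chromosome 7 and Plin2 on chromosome 4.

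**Figure D2:**
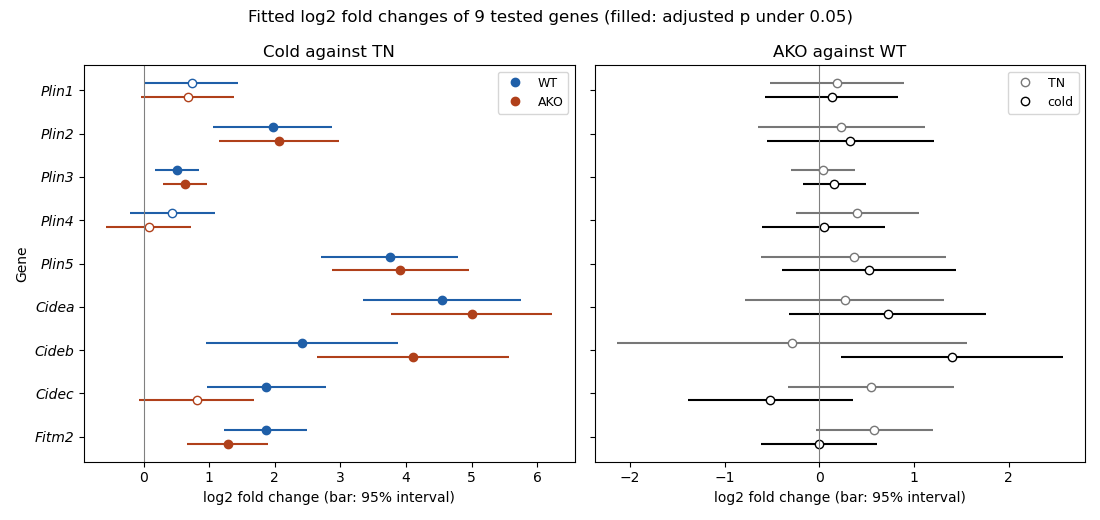
Fitted log2 fold changes of the 9 tested genes with 95% intervals, for cold against TN in WT and AKO (left) and for AKO against WT at TN and in cold (right). Filled points had an adjusted p under 0.05. In cold against TN, the intervals of Cidea and Plin5 lie above 2.7 in both genotypes, and no point is filled for AKO against WT.

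Of the CIDE genes, Cidea rose most of all members. CIDEA is abundant in brown and beige adipocytes and is used as a marker of them. It was measured at 33.4, 7.37 and 38.2 CPM in TN WT and at 511, 750.1 and 583 CPM in cold WT. In AKO it was at 20.3, 39.0 and 35.8 CPM at TN and at 1336, 782 and 924 CPM in cold. The lowest cold library thus lay far above the highest TN library, in WT and in AKO. The fitted rise was 23.3-fold in WT (log2 4.54 ± 0.55 SE, edgeR adjusted p = 7.06e-04) and 31.96-fold in AKO (log2 4.998 ± 0.56 SE, edgeR adjusted p = 3.09e-04).

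Cidec, which encodes the CIDE protein that enlarges LDs in white adipocytes, was measured at 1050, 442 and 966 CPM in TN WT and at 2403, 1659 and 4924 CPM in cold WT. In AKO it was at 999.9, 1508 and 1080 CPM at TN and at 2230, 2094 and 1960 CPM in cold. TN and cold did not overlap in either genotype, and cold WT library 3 stood well above the rest. Cidec rose 3.66-fold in WT (log2 1.87 ± 0.41 SE, edgeR adjusted p = 0.0104), or by 1.31 on the log2 scale without cold WT library 3 (all 12 fits that left out a library kept the call). When only the 6 WT libraries were fitted, the edgeR adjusted p was 0.0569. In AKO the log2 difference was 0.81 (95% interval -0.07 to 1.69, edgeR adjusted p = 0.144), which was past the limit with limma voom (adjusted p = 0.0361) and when only the 6 AKO libraries were fitted (edgeR adjusted p = 0.0241). The difference between these responses, the genotype by temperature interaction, was -1.06 ± 0.56 SE (edgeR unadjusted p = 0.086, adjusted p = 1), and it was -0.50 without cold WT library 3. That library also had the highest summed level of white adipocyte markers (33330 CPM), of which Fabp4 made up 16670 CPM. These markers did not move as a set: Adipoq, Retn and Fabp4 were highest there, Cfd and Lep were highest in other libraries, and Nnat was lowest there (5.55 CPM). The same library had the highest summed level of 22 other LD genes (27890 CPM), and the lowest of macrophage and lymphocyte markers (1095 and 440 CPM). The part of these in the Cidec value was not tested.

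Cideb, the CIDE gene of liver and intestine, was close to the detection limit, with 2, 2 and 7 counts in TN WT, 3, 4 and 1 in TN AKO, 4, 20 and 21 in cold WT and 45, 37 and 34 in cold AKO. The groups overlapped in WT, where cold WT library 1 had 4 counts, and did not overlap in AKO. The log2 difference was 2.41 ± 0.67 SE in WT (edgeR adjusted p = 0.0274) and 4.10 ± 0.66 SE in AKO (edgeR adjusted p = 0.00182). Because Cideb entered this test through its cold libraries, these p-values depend in part on the outcome, and in the fit without the filter they were 0.0362 in WT and 0.00192 in AKO. The WT call was lost when any of 4 libraries was left out, with an edgeR adjusted p of 0.0979 without TN WT library 1, 0.104 without TN WT library 2, 0.0683 without cold WT library 2 and 0.104 without cold WT library 3. Of the 1488 exon bases of Cideb, 1136 are shared with Nop9 on the opposite strand. Whether the counting used strand is not given in the sources used here, so reads of both genes may not be separable. Nop9 lay between 21.8 and 27.5 CPM in all libraries.

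Of the FIT genes, Fitm2 is the widely expressed member and Fitm1 that of skeletal and heart muscle. Fitm2 was measured at 48.0, 24.6 and 54.1 CPM in TN WT and at 134.9, 121 and 205 CPM in cold WT. The AKO libraries held 51.5, 75.1 and 62.8 CPM at TN and 174, 147 and 138 CPM in cold. No TN library reached the cold range. Fitm2 rose 3.64-fold in WT (log2 1.86 ± 0.29 SE, edgeR adjusted p = 0.00207) and 2.43-fold in AKO (log2 1.28 ± 0.28 SE, edgeR adjusted p = 0.0093). Fitm1 had 1 count in each TN WT library, 2, 39 and 5 in TN AKO, 1, 3 and 9 in cold WT and 33, 4 and 1 in cold AKO. The 39 and 33 counts, 1.23 and 1.60 CPM, were in TN AKO library 2 and cold AKO library 1, where the 10 muscle markers summed to 1901 and 1636 CPM. Most other libraries were at or under the 3 counts that a count of 0 allows, so no fold change is given for Fitm1, and its position in muscle-containing libraries is a description.

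**Figure D3:**
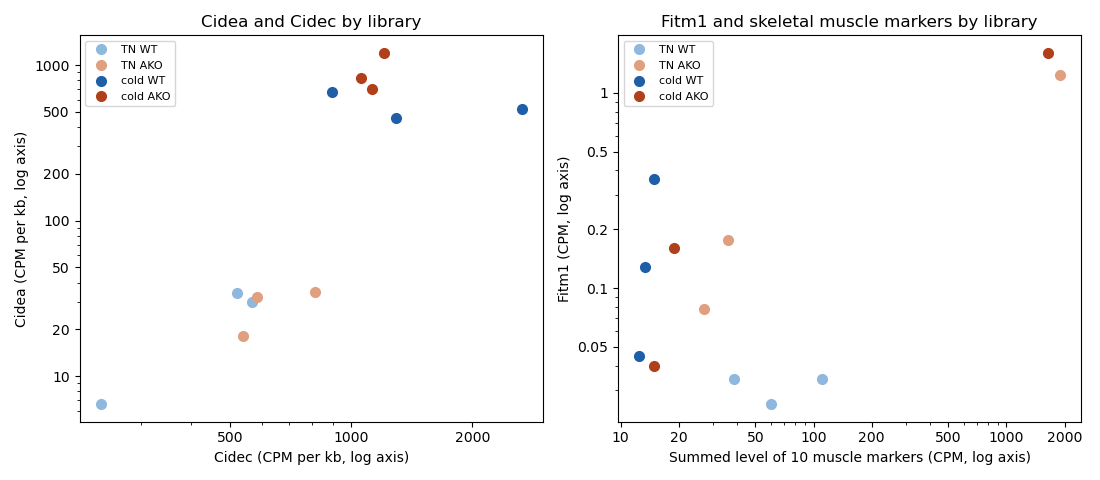
Cidea against Cidec in CPM per kilobase (left) and Fitm1 in CPM against the summed CPM of 10 skeletal muscle markers (right), with a point for each library and log axes. Every cold library lies above every TN library for Cidea and for Cidec, and the 2 libraries with 1636 and 1901 CPM of muscle markers hold the highest Fitm1 values.

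To compare genes with each other, CPM was divided by the kilobases of merged exons in the GENCODE vM21 annotation. At TN in WT the order was Cidec (442 ± 177 SD, n = 3), Plin4 (218 ± 81.7), Plin1 (187 ± 71.7), Plin2 (67.8 ± 35.8), Cidea (23.6 ± 14.9), Plin3 (14.8 ± 1.41), Fitm2 (10.7 ± 3.93) and Plin5 (3.71 ± 2.06 CPM per kilobase). The ranges over libraries of Plin4 and Plin1 overlapped, although Plin4 was the higher in each of the 6 TN libraries, and Cidea, Plin3 and Fitm2 did not differ beyond their spread. In cold WT the order was Cidec (1614 ± 922 SD, n = 3), Cidea (551 ± 110), Plin1 (312 ± 53.0), Plin4 (294 ± 35.6), Plin2 (265 ± 74.3), Plin5 (50.1 ± 8.21), Fitm2 (38.7 ± 11.3) and Plin3 (21.1 ± 2.54 CPM per kilobase). Plin1, Plin4 and Plin2 did not differ beyond their spread there, and Plin5 had moved above Plin3. In cold AKO, Cidec was at 1129 ± 72.9 and Cidea at 910 ± 258 CPM per kilobase (SD, n = 3), within the spread of each other. In all 4 groups Cideb was at or below 1.13 and Fitm1 at or below 0.618 CPM per kilobase on average. The length of Cideb includes the 1136 bases shared with Nop9. How reads there were counted is not known, so the level of Cideb per length and its share among the CIDE genes are uncertain.

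As shares of the summed perilipin level per length, Plin4 held most at TN and less in cold. It made up 44.4 ± 2.18% in TN WT and 31.4 ± 2.54% in cold WT (SD, n = 3), and 48.2 ± 3.35% in TN AKO and 28.6 ± 3.98% in cold AKO. Plin2 made up 13.2 ± 2.32% in TN WT and 27.9 ± 3.36% in cold WT, and 13.2 ± 2.09% in TN AKO and 30.8 ± 4.11% in cold AKO. Plin5 was at 0.713 ± 0.218% in TN WT and 5.39% in cold WT, and at 0.771% in TN AKO and 6.69% in cold AKO. Plin1 held 38.4 ± 2.29% in TN WT, 33.1 ± 1.46% in cold WT, 35.2 ± 1.93% in TN AKO and 31.7 ± 2.93% in cold AKO. For Plin2, Plin4 and Plin5, no TN library overlapped with any cold library. The summed perilipin level was 491 ± 191 CPM per kilobase in TN WT and 943 ± 158 in cold WT, and 601 ± 192 in TN AKO and 1074 ± 128 in cold AKO, so the lower share of Plin4 came with a level that did not pass the test and a larger sum.

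Cidea was 2.70 to 6.18% of the CIDE level per length in the 6 TN libraries. In cold it was 26.1, 42.9 and 16.5% in WT and 49.9, 38.3 and 44.0% in AKO, with the remainder almost wholly Cidec. The ratio of Cidea to Cidec was 0.0277 to 0.0658 at TN, 0.354, 0.753 and 0.197 in cold WT and 0.997, 0.622 and 0.785 in cold AKO. The cold genotypes overlapped in this ratio. These shares are descriptions without a test.

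**Figure D4:**
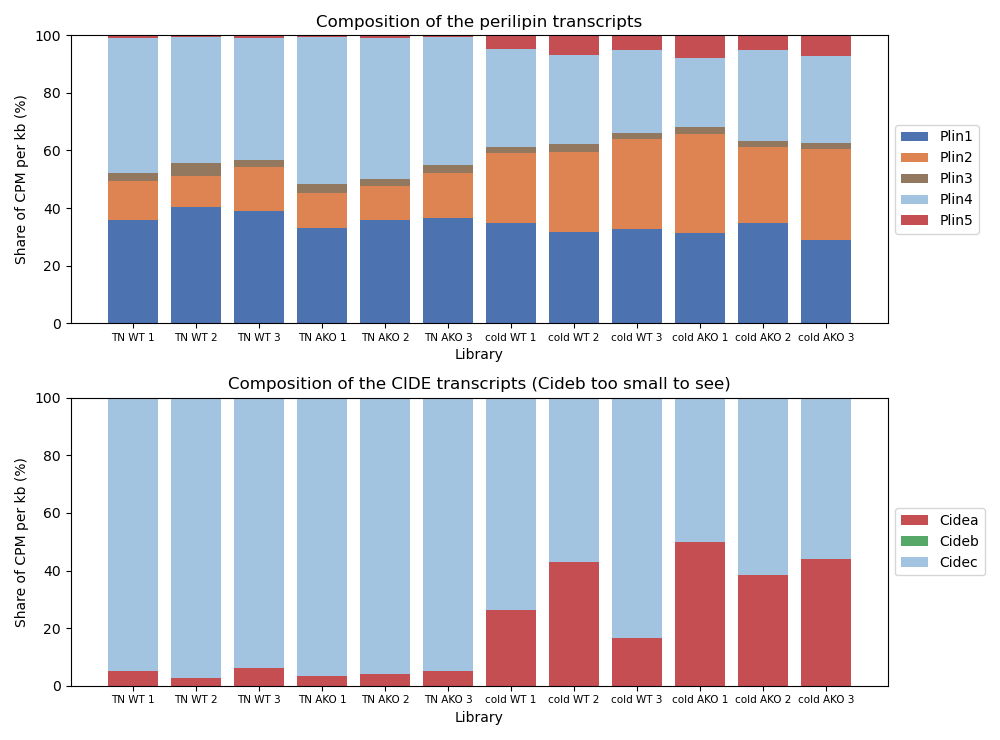
Stacked bars of the share (%) of each gene in the summed CPM per kilobase of the perilipins (top) and of the CIDE genes (bottom), with a bar for each library. Plin2 and Plin5 take larger and Plin4 smaller shares in all 6 cold libraries, and Cidea goes from at most 6.18% at TN to between 16.5 and 49.9% in cold.

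Between genotypes, no member passed the test. Of all genes, 0.00653% were called at TN and 0.00653% in cold by edgeR, that is 1 gene each, and the interaction called 0%. In the edgeR fit of all 12 libraries, no member had an unadjusted p under 0.05 at TN or for the interaction, and 1 had it in cold (Cideb). When a library was left out, at most 2 members had it at TN, at most 2 in cold and at most 1 for the interaction. In cold, 3 members had it in each fit of the 6 cold libraries alone, and 3 without TN WT library 2 and TN AKO library 1. With limma voom, Fitm2 had an unadjusted p of 0.0218 at TN (adjusted p = 0.443). DESeq2 and limma voom called no member either. At TN, 0 of the 9 tested members had groups that did not overlap, against 7.69% of all genes. The largest difference was that of Fitm2, higher in AKO by 0.58 on the log2 scale (95% interval -0.04 to 1.197, edgeR unadjusted p = 0.063, adjusted p = 0.999), or by 0.31 without TN WT library 2. Plin2 differed by 0.23 (95% interval -0.65 to 1.11) and Cidea by 0.27 (95% interval -0.78 to 1.32), and both turned to the other side of 0 without TN WT library 2, at -0.11 and -0.17.

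In cold, Cidea and Cideb were the members with groups that did not overlap, or Cidea alone, 1 of 8, without Cideb, against 7.53% of all genes. Cidea was higher in the libraries labelled AKO by 0.72 on the log2 scale (95% interval -0.32 to 1.76, edgeR unadjusted p = 0.156, adjusted p = 1), and by 0.47 without cold AKO library 1. The difference was about the same with a smaller SE in fits of the 6 cold libraries alone, at 0.72 ± 0.24 SE with edgeR (unadjusted p = 0.0191, adjusted p = 1) and 0.73 ± 0.24 SE with DESeq2 (unadjusted p = 0.00283, adjusted p = 0.605). Without TN WT library 2 and TN AKO library 1 it was 0.74 ± 0.21 SE (edgeR unadjusted p = 0.00662, adjusted p = 1). Without both libraries with muscle transcripts it was 0.47 ± 0.54 SE (edgeR unadjusted p = 0.402). Cideb was higher by 1.40 (95% interval 0.23 to 2.57, edgeR unadjusted p = 0.0234, adjusted p = 1), on counts of 4 to 21 in WT and 34 to 45 in AKO, and by 0.97 without cold WT library 1. Plin5 differed by 0.53 (95% interval -0.40 to 1.45) and Plin2 by 0.33 (95% interval -0.55 to 1.21). Without cold AKO library 1, the library with muscle transcripts, these were 0.29 and 0.13. In fits of the 6 cold libraries alone, Plin5 differed by 0.52 ± 0.21 SE with edgeR (unadjusted p = 0.0408). With DESeq2 it differed by 0.53 ± 0.24 SE (unadjusted p = 0.0252), and neither fit passed the adjusted limit. Plin2 was at 0.33 ± 0.25 SE with edgeR and 0.34 ± 0.25 SE with DESeq2 in these fits. Cidec differed by -0.52 (95% interval -1.39 to 0.36, edgeR unadjusted p = 0.222, adjusted p = 1), and without cold WT library 3 the difference was 0.04. The intervals of all 5 of these genes reach past a 2-fold difference. For the response to cold, the interaction was 0.45 (95% interval -1.03 to 1.93) for Cidea and 1.69 (95% interval -0.53 to 3.92) for Cideb on the log2 scale.

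Genes whose profile lay nearest to each member were ranked by the root mean square difference of centred log2 CPM over the 12 libraries, a measure that the step between TN and cold dominates. For Plin5 these were Cox8b (0.22), Fbp2 (0.28) and Cend1 (0.36), where the median over all genes was 2.10. For Cidea they were Cox8b (0.38), Hpdl (0.46) and Plin5 (0.52), with a median of 2.59. Plin2 lay nearest to Apoo, Rbpms2 and B430212C06Rik (each 0.16, median 1.21). The last of these is transcribed from the strand opposite Cidea and overlaps its start without shared exon bases. Cidec lay nearest to Cat (0.15), Ces1d (0.22) and Eci3 (0.22), with a median of 0.89, and Fitm2 to Nrg4 (0.12), Dgat1 (0.12) and Tmem120a (0.14), with a median of 0.94. Plin3 lay nearest to Mff (0.06), Arl8b (0.07) and Rab1 (0.07), with a median of 0.44. Cideb lay nearest to Dnajc22 (0.45), 9030619P08Rik (0.48) and Spata17 (0.55), with a median of 1.56. Among the members themselves, Cidec and Fitm2 (0.27) and Plin1 and Plin4 (0.27) were the closest pairs.

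The 22 other LD genes examined were higher in cold for the most part. Their list held lipases, regulators of these, enzymes of triglyceride synthesis and others, such as Cav1, Cavin1, Rab18 and Bscl2. Upon cold, 10 of 22 rose in WT and 11 of 22 in AKO, none fell, and of all genes tested 15.6% rose in each genotype while 5.68% fell in WT and 11.5% in AKO. The median log2 difference was 0.97 in WT and 0.65 in AKO, against -0.03 and -0.05 over all genes tested. Of the synthesis genes, Agpat2, which makes phosphatidic acid, rose by 2.83 ± 0.58 SE in WT and 2.68 ± 0.58 SE in AKO on the log2 scale. Dgat1, which adds the last acyl chain, rose by 1.65 ± 0.25 SE and 1.29 ± 0.25 SE. Dgat2, the more abundant of these 2 genes, was outside the limit in WT (1.25, edgeR adjusted p = 0.152) and in AKO (0.61, edgeR adjusted p = 0.462). Lpin1, a phosphatidate phosphatase, rose by 1.88 in WT and 1.43 in AKO, and the acyl-CoA synthetases Acsl1 and Acsl3 by 2.03 and 1.14 in WT and 1.49 and 1.07 in AKO. Bscl2, which encodes seipin of LD assembly sites, rose by 1.03 in WT and 0.88 in AKO.

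Of the genes of lipolysis, Pnpla2, which encodes the triglyceride lipase ATGL, rose by 2.09 ± 0.34 SE in WT and 1.43 ± 0.33 SE in AKO. Its inhibitor G0s2 rose by 1.96 and 1.33, its activator Abhd5 by 1.26 and 1.18, and the monoglyceride lipase Mgll by 1.41 and 1.28. Ldah passed the test in AKO (0.62, edgeR adjusted p = 0.0399) and not in WT (0.58, edgeR adjusted p = 0.0556). Lipe, the hormone-sensitive lipase, was outside the limit in WT (0.91, edgeR adjusted p = 0.0501) and in AKO (0.67, edgeR adjusted p = 0.109), and was named after its values were seen. When each library was left out in turn, Agpat2, Dgat1 and Abhd5 kept their calls in all 12 fits in both genotypes, and Pnpla2, Acsl1, G0s2 and Lpin1 did so in WT. In AKO, G0s2 was called in 3, Acsl3 in 5 and Ldah in 6 of the 12 fits. Without TN AKO library 2 and cold AKO library 1, the 2 libraries with muscle transcripts, 2 of these 11 genes, Agpat2 and Dgat1, kept their call in AKO. Of all genes, 1239 of 15442 rose in AKO in that fit, against 2381 of 15306 with all 12 libraries. With 2 libraries left in each AKO group, the fold changes were no smaller for several of the genes that lost the call. Such genes were Pnpla2 (1.53, edgeR adjusted p = 0.0544), G0s2 (1.56, edgeR adjusted p = 0.106) and Mgll (1.41, edgeR adjusted p = 0.0785).

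**Figure D5:**
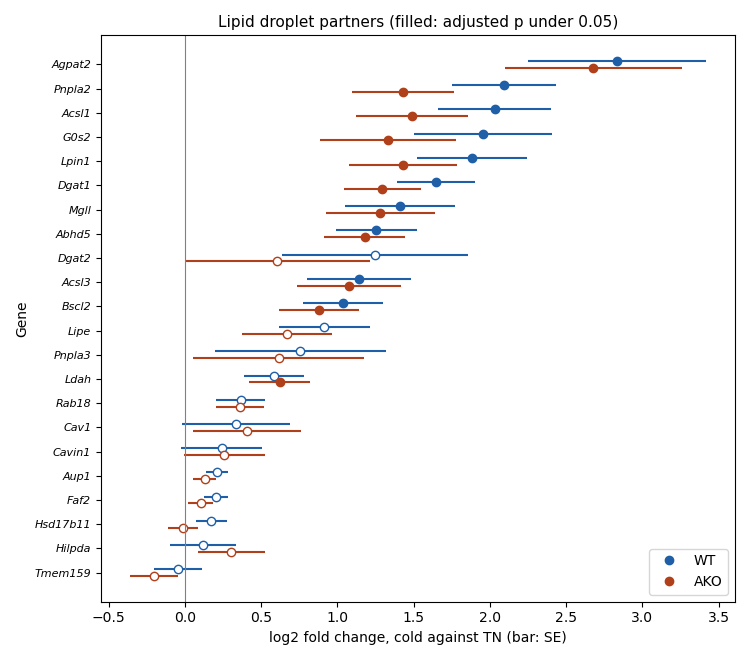
Log2 fold changes, cold against TN, of 22 other LD genes in WT and AKO, with bars of the standard error and filled points for an adjusted p under 0.05. Agpat2 and Pnpla2 lead in WT, and Tmem159 at the bottom is the only gene below 0 in both genotypes.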

How the data were processed

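The authors deposited whole read counts per gene without normalization. Per the study's methods and the submitters' processing notes, reads were trimmed with Trim Galore 0.4.4, aligned to GRCm38/mm10 with STAR 2.6.1d and counted with HTSeq 0.13.5. The annotation and the strand setting are not given in the sources used here. Tallies of reads outside genes, 21.9 to 27.0% of the reads listed, were left out. Counts in the 12 files of single samples were identical to those in the table of the whole series.

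The members and gene lists were chosen with earlier results of these data known. Genes were kept by filterByExpr (minimum count 10, minimum total 15), which left 15306, and 1 model of 4 groups was fitted with edgeR 4.0.16 (TMM, quasi-likelihood) in R 4.3.3, with Benjamini-Hochberg adjustment and a limit of 0.05. DESeq2 1.42.0 and limma 3.58.1 (voom) were alternatives, as were RLE scaling, no filter, only the libraries compared, a replicate block and each library left out. Log2 profiles used a prior count of 2. The procedure was run on simulated counts with known changes. These held no libraries that stand apart as some do here, so that run does not test the calls in these data. At this depth a count of 0 allows 3 counts, for counting error only.

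Named were all members, partners past the limit in cold against TN (at most 12, largest change in WT first), the 3 nearest profiles of each called member, and Epas1. Lipe and Dgat2 were named after their values were seen. The largest normalization factor was 1.199 and the lowest 0.829.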

Additional observations from a re-analysis of the deposited data

How the results depend on the processing

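Of the members called in cold against TN, Cidea, Plin5, Plin2 and Fitm2 kept their calls in both genotypes under every alternative run. The count of members that rose in WT was 7, and lay between 5 and 8 when a library was left out, at 8 with limma voom, at 5 when only the 6 libraries compared were fitted, and at 5 without the TN libraries lowest in adipocyte markers (TN WT library 2 and TN AKO library 1), an alternative chosen after seeing the data. In AKO it was 6, between 5 and 6 when a library was left out, 7 with limma voom, 7 when only the 6 libraries compared were fitted, and 5 without the TN libraries lowest in adipocyte markers. All of these counts include Cideb where it passed the filter, which it did not in the fit of the 6 WT libraries. Over all genes, 1149 of 15506 to 2669 of 15467 rose in WT when a library was left out. With limma voom 3077 of 15306 rose, with only the 6 libraries compared 1468 of 14975, and without the TN libraries lowest in adipocyte markers 1315 of 15457. In AKO the same fits gave 1299 of 15486 to 2625 of 15506, then 3214 of 15306, 2556 of 14940 and 1562 of 15457. Leaving out both libraries with muscle transcripts was also chosen after seeing the data. Plin3 in WT had an edgeR adjusted p of 0.0566 without the filter, and Cidec in WT of 0.0569 when only 6 libraries were fitted. No member was called between genotypes or for the interaction under any alternative run, and DESeq2 on the 6 cold libraries was among them.

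Some small differences changed sign. When each library was left out, Plin4 in AKO upon cold spanned -0.12 to 0.33, and it was -0.12 without the TN libraries lowest in adipocyte markers. Between genotypes at TN, Plin2 spanned -0.11 to 0.66, Cidea -0.17 to 0.63 and Epas1 -0.21 to 0.10, and Cidec in cold spanned -0.78 to 0.0446.

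Whether the replicate numbers pair the samples was not settled, because pairs with different numbers were not compared. Of 18 pairs of libraries with the same number, 5 had deviations correlated above 0.1, with a range from -0.43 to 0.39. With the replicate block, 5 members rose in WT and 6 in AKO, and Plin3 and Cideb in WT had edgeR adjusted p of 0.0604 and 0.0531. Of all 15306 genes in that fit, 2018 rose in WT and 2090 in AKO.

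Without length scaling, as shares of CPM, the mean share of Plin1 was 36.0% in TN WT and 32.8% in TN AKO. That of Plin2 was 9.37% in TN WT, 9.30% in TN AKO, 21.6% in cold WT and 24.5% in cold AKO, and that of Plin4 was 51.8, 55.6, 40.1 and 37.2% in the same groups. That of Plin5 was 0.300, 0.322, 2.49 and 3.16%. Cidea was at 2.84% of the CIDE sum in TN WT, 2.57% in TN AKO and 32.2% in cold AKO. On this scale Plin1 was at 33.9% in cold WT and 33.3% in cold AKO, so that its mean share in AKO was no longer lower in cold than at TN. With 3 libraries per group, the 95% intervals between genotypes in cold reached past a 2-fold difference for Cidea, Cideb, Cidec, Plin5 and Plin2.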
